A study of Homo sapiens with 6 samples.

Results

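This account covers 10 genes that a natural killer cell, a T cell or a macrophage can read on the surface of a leukaemia cell: NCR3LG1, MICA, MICB, ULBP1, ULBP2, ULBP3, PVR, CD47, C10orf54 (the gene of the checkpoint protein VISTA, now named VSIR) and CD274 (the gene of PD-L1). They were taken by gene name from the deposited FPKM table and joined by Ensembl identifier to the 6 count tables, and all 10 were found among 60675 identifiers. The cells were OCI-AML2, an established human acute myeloid leukaemia line, transduced with short hairpin RNA against PNPT1 (3 libraries) or against SUPV3L1, also called SUV3 (3 libraries), and described as biological replicates. All libraries hold RNA precipitated from lysates with J2, an antibody that binds double-stranded RNA, so what the groups share is the line, a hairpin vector and the precipitation. Libraries of cells without a knockdown and libraries of RNA before precipitation were not analysed here. Every comparison below is therefore SUPV3L1 knockdown against PNPT1 knockdown, and a difference in expression cannot be told apart from a difference in precipitation. The library titles carry numbers that the sources used here do not explain, so it is not known whether libraries of a group share a hairpin. Replicates were numbered by deposition order, which pairs no libraries. As in any bulk sample, fewer cells with an RNA and less of it per cell cannot be told apart.

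Natural killer cells weigh activating against inhibitory signals on a target. NCR3LG1 (B7-H6) is a ligand of the activating receptor NKp30, and MICA, MICB and the ULBP proteins are stress-induced ligands of the activating receptor NKG2D. PVR (CD155) binds the activating receptor DNAM-1 and also the inhibitory receptor TIGIT. CD47 signals through SIRP-alpha on macrophages against engulfment, and VISTA and PD-L1 restrain T cells. PNPT1, a 3′ to 5′ exoribonuclease, and SUPV3L1, an RNA helicase, work together in mitochondria, where loss of either is known to let double-stranded mitochondrial RNA accumulate.

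The promoters are shown first, to show how alike the paralogs MICA and MICB are and which motifs the genes have near an annotated start. Each runs from 250 bases before to 50 bases after the RefSeq start of the gene on GRCh38.p14, 5′ to 3′ on the strand of the gene, and all 10 genes matched a RefSeq promoter. Where transcription started in these cells was not measured, and the windows of MICA, MICB and CD47 lie inside the gene spans of GENCODE 29 given below, whose outermost start is farther upstream. NCR3LG1 (chr11:17351550-17351849, plus strand) and CD47 (chr3:108090982-108091281, minus strand) are printed as the genes with the smallest p-values, MICA (chr6:31403345-31403644, plus strand) and MICB (chr6:31497895-31498194, plus strand) as a paralog pair, and CD274 (chr9:5450292-5450591, plus strand) as a checkpoint gene with almost no reads. Capitals mark matches, on either strand, to the GC box GGGCGG, the CCAAT box CCAAT, the heat shock element core GAANNTTC and the interferon regulatory factor repeat (GAAA, any 2 bases, then GAAA again), and where matches overlap they form one run.
NCR3LG1: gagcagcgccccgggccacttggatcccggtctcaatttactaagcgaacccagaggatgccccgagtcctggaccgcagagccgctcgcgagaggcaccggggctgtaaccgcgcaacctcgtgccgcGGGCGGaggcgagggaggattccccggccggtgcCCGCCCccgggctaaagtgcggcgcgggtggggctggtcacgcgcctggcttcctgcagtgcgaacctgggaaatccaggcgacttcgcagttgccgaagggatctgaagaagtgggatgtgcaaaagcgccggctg
CD47: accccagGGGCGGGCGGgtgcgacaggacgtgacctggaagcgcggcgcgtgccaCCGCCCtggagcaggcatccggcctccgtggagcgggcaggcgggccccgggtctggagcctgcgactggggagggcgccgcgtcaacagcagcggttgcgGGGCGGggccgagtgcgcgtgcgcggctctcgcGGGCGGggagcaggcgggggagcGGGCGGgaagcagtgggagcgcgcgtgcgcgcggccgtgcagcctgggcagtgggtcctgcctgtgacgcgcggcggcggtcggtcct
MICA: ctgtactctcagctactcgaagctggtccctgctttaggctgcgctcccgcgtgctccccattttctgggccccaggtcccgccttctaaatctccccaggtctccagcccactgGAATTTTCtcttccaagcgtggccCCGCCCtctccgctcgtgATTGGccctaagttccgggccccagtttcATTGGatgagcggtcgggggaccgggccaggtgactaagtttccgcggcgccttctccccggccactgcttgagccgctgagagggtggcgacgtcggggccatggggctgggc
MICB: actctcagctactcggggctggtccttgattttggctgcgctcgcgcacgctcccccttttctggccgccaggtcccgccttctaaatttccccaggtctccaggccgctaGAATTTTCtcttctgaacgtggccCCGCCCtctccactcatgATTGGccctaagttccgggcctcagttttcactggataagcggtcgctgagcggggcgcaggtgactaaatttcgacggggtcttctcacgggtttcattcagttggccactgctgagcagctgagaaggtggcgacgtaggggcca
CD274: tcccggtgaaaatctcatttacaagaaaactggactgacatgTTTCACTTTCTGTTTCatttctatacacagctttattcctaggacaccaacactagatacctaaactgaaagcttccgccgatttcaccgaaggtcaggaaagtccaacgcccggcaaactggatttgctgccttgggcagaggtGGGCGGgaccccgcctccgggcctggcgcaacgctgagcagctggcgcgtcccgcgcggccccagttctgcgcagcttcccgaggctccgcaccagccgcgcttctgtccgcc
MICA and MICB were identical at 246 of 284 aligned promoter bases (86.6%), and each holds 1 heat shock core, 1 GC box and a CCAAT box (2 in MICA, 1 in MICB). Of the 10 promoters, 9 held a GC box, 3 a CCAAT box, 2 a heat shock core and 1, that of CD274, the interferon regulatory factor repeat, with 2 overlapping matches. Over 35116 RefSeq promoters of this length, the shares with a match were 45.0%, 34.6%, 6.77% and 3.57%. The GC box in 9 of 10 promoters is thus above the share over all promoters, PVR being the exception, although no test was made. Those promoters were taken by length only and not matched for gene type or for G and C content, which was 56.7% to 79.0% in the 10. CD47, with 79.0% G and C, held 6 GC box matches, and NCR3LG1, with 68.0%, held 2. A match describes letters only and says nothing of binding in these cells.

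The libraries were assigned 5852090 to 11361371 counts each. PNPT1 knockdown replicate 3 stood apart. It had the fewest counts and the fewest genes with a count (16620 against 20765 to 22393 elsewhere). Its share of mitochondrial counts was the lowest (11.3% against 21.7% to 42.0%). Its share of counts in genes named after 4 genomic clones was the highest (37.7% against 10.9% to 22.1%). With unassigned entries included, 7.06% of its entries were assigned to a gene (12.0% to 16.0% elsewhere). Of the same entries, 80.1% were not uniquely aligned (65.7% to 71.6% elsewhere). The targeted RNAs had their lower mean in their own knockdown, without overlap for PNPT1 (7.66 to 18.9 against 21.4 to 36.3 CPM) and with overlap for SUPV3L1 (9.42 to 12.3 against 11.5 to 25.8 CPM). Of all tested genes, 4.62% were higher in SUPV3L1 knockdown without overlap, as PNPT1 was. The log2 fold changes (SUPV3L1 minus PNPT1 knockdown) were 0.97 for PNPT1 and -0.70 for SUPV3L1, and neither passed (adjusted p = 0.898 for each, edgeR). Of 10 markers fixed for the myeloid line, 8 passed the expression filter, among them MPO at 0.822 to 7.07 CPM and ITGAM at 0.512 to 16.3 CPM. KIT and ANPEP were below 1 CPM in every library. PTPRC, a general leukocyte marker, was the highest in each library, at 281.9 to 606.5 CPM. With PTPRC included, the 10 summed to 588 to 1070 CPM with PNPT1 knocked down and 753 to 854 CPM in SUPV3L1 knockdown. Markers of natural killer and T cells summed to 6.67 to 8.96 CPM and 8.88 to 14.0 CPM in the same order, with KLRK1 and TIGIT at 0 and CD3D, CD3E, CD247 and PRF1 below 0.3 CPM. Of these 13 markers 3 passed the filter. NKG7 (1.19 to 6.70 CPM) was the highest of the 13 in each library but SUPV3L1 knockdown replicate 3. There KLRF1 (0.768 to 3.36 CPM over all libraries) and CD226 (0.256 to 3.45 CPM) lay above it. Of 4 B cell markers MS4A1 was at 0 and the sum reached 4.33 CPM at most. The 4 erythroid markers were at 0, 4 of 5 epithelial markers (EPCAM, KRT18, KRT19 and CDH1) were at 0, and of 5 fibroblast markers COL1A2 and COL3A1 were at 0 and the sum reached 1.28 CPM at most.

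Of the 10 genes, 6 passed the expression filter and 4 did not. Levels are CPM, read counts scaled to a common library total with TMM factors, which correct for a few genes taking much of a library, and 13275 genes in all were tested. None of the 6 passed the edgeR quasi-likelihood test after Benjamini-Hochberg adjustment across the table (threshold 0.05), and neither did any other gene (0 of 13275, 0%; smallest adjusted p = 0.898). Before adjustment, 2 of the 6 had a p under 0.05, NCR3LG1 and CD47, beside 4.09% of all tested genes. Over the alternatives that count ran from 0 to 4. It was 0 with library totals alone (316 of 13275 genes) and with limma on unfiltered log2(FPKM + 0.1) (721 of 28181 genes). It was 4 without PNPT1 knockdown replicate 2, where 2098 of 13702 genes had such a p. DESeq2 took in 8 of the 10, all but ULBP2 and ULBP3, and called none of them. It called 0.108% of the genes for which it gave an adjusted p. The median log2 fold change (SUPV3L1 minus PNPT1 knockdown) of the 6 was 0.29, with 4 above 0, and that of all tested genes was 0.01, with 50.7% above 0. The 6 were chosen with earlier results known, so these counts describe them and support nothing.

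**Figure D1:**
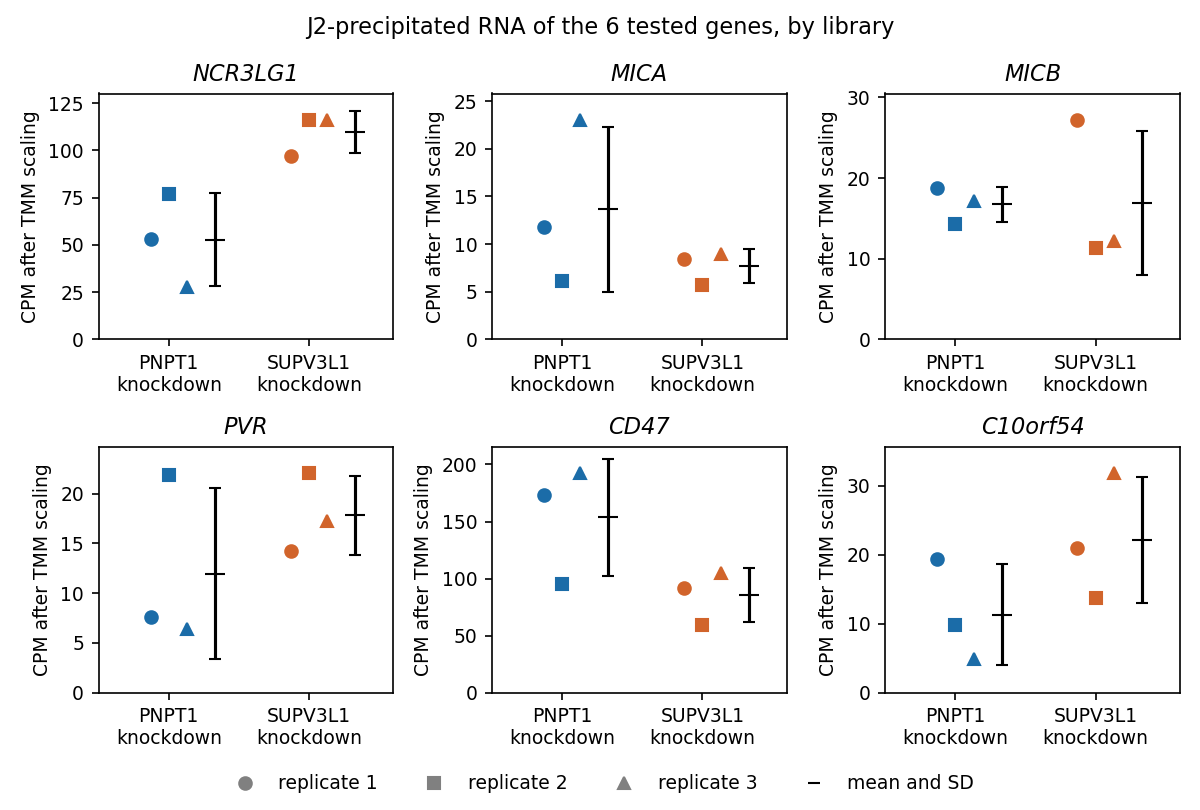
CPM after TMM scaling (y axis) of the 6 tested genes in each library, by knockdown (x axis); symbols mark replicates, and the bar gives the mean and SD of 3 libraries. The NCR3LG1 libraries of SUPV3L1 knockdown sit at 97.0 to 116 CPM, above the 27.9 to 77.1 CPM of PNPT1 knockdown, and in CPM the groups overlap for the other 5 genes.

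NCR3LG1 (ENSG00000188211, GRCh38 chromosome 11, 17351726 to 17377341, plus strand, protein-coding) was the only one of the 6 whose groups did not overlap in CPM, as those of 8.56% of all tested genes did not. It had 531, 883 and 109 reads in PNPT1 knockdown replicates 1, 2 and 3, or 52.8, 77.1 and 27.9 CPM. The SUPV3L1 knockdown libraries had 1180, 1231 and 1071 reads, or 97.0, 116 and 116 CPM. The SUPV3L1 knockdown libraries lay close together and above each PNPT1 knockdown library, and the lowest level was in PNPT1 knockdown replicate 3, the library that stands apart. The means were 109.7 ± 10.98 CPM with SUPV3L1 and 52.6 ± 24.6 CPM with PNPT1 knocked down (SD, n = 3). The log2 fold change was 1.05 ± 0.38 (SE), or 2.08-fold, with adjusted p = 0.898 in the edgeR quasi-likelihood test. Groups did not overlap, with the higher level in SUPV3L1 knockdown, for 4.62% of all tested genes, so 1 of 6 is not far from what all genes show. Leaving out PNPT1 knockdown replicate 3 gave 0.75, and leaving out replicate 2, the PNPT1 knockdown library nearest to the other group, gave 1.42 (adjusted p = 0.243, the lowest over 15 alternatives, which reached 0.999). With mitochondrial and clone-named genes removed before scaling it was 1.05, as with all genes. None of the transcribed bases of NCR3LG1 lies in another annotated gene, and none of its 6419 distinct 50-base words occurs in transcripts of another gene in GENCODE 29.

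The genes whose log2 CPM over the 6 libraries followed NCR3LG1 most closely were BTRC (Pearson's r = 0.998), AP4M1 (r = 0.995) and PDPR (r = 0.992), among 9817 genes with a mean of 5 CPM or more. The r are descriptions over 6 libraries that share 2 groups and their depths, and 483 of those genes had an r over 0.9. BTRC, which encodes a substrate-recognition subunit of an SCF ubiquitin ligase, had a log2 fold change of 0.66 (adjusted p = 0.898, edgeR).

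The NKG2D ligands fell into detected MIC genes and nearly undetected ULBP genes. MICA (ENSG00000204520, chromosome 6, 31399784 to 31415315, plus strand) had 118, 70 and 90 reads in PNPT1 knockdown, or 11.7, 6.11 and 23.0 CPM. It had 103, 60 and 83 reads in SUPV3L1 knockdown, or 8.47, 5.66 and 8.99 CPM. PNPT1 knockdown replicate 3 was the high library, and the other 5 lay between 5.66 and 11.7 CPM with the groups overlapping. A log2 fold change of -0.80 ± 0.51 (SE; adjusted p = 0.898, edgeR) shrank to -0.22 without PNPT1 knockdown replicate 3.

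MICB (ENSG00000204516, chromosome 6, 31494881 to 31511124, plus strand) had 188, 164 and 67 reads in PNPT1 knockdown, or 18.7, 14.3 and 17.1 CPM. It had 331, 120 and 113 reads in SUPV3L1 knockdown, or 27.2, 11.3 and 12.2 CPM. In CPM, SUPV3L1 knockdown replicate 1 was the highest of the 6 libraries and its other replicates were the lowest. The PNPT1 knockdown values in CPM thus lay inside the SUPV3L1 knockdown range. On the deposited FPKM, MICB was lowest in PNPT1 knockdown replicate 3, at 2.84 against 3.11 to 7.78 in SUPV3L1 knockdown. Its log2 fold change was 0.02 ± 0.41 (SE, n = 3 per group; adjusted p = 0.993, edgeR), and -0.52 without SUPV3L1 knockdown replicate 1. The direction of MICB is thus not fixed by these data, and it also turned with RLE scaling (-0.002).

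The ratio of MICB to MICA reads inside a library does not depend on library scaling. It was 1.59, 2.34 and 0.744 with PNPT1 knocked down. With SUPV3L1 knocked down it was 3.21, 2.00 and 1.36, so the groups overlapped. Because the aligned parts of their longest coding transcripts were 89.9% identical (1241 of 1381 bases), it was checked how much of each gene could not be told from other genes by sequence. Of 50-base words, 2.64% of those of MICA and 2.94% of those of MICB occur in transcripts of another gene, 45 of them in common between the pair, and no 100-base word does. Read length was not known here, and only GENCODE 29 transcripts, not the genome, were searched. MICA also overlaps the noncoding gene HCP5 on the same strand over 62 exonic bases, 2.60% of its exonic length, and HCP5 itself had at most 1 read in any library.

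ULBP1, ULBP2 and ULBP3 lie on chromosome 6 (149964007 to 149973710, 149942000 to 149949235 and 150063150 to 150069095, the last on the minus strand). ULBP1 had 0, 5 and 1 reads in PNPT1 knockdown and 1, 0 and 2 reads in SUPV3L1 knockdown. The 5 reads of PNPT1 knockdown replicate 2, the highest value of the gene, have an exact Poisson 95% interval of 1.62 to 11.7, which covers counting error only. ULBP2 and ULBP3 had 0 reads in the 6 libraries. At these depths 3 reads, the limit that a count of 0 allows, correspond to 0.247 to 0.768 CPM, depending on the library. No fold is given for these genes. ULBP2 shares 32.2% of its 50-base words with other genes, mostly with RAET1L, and ULBP3 and ULBP1 share 12.4% and 6.85%, mostly with RAET1K, and the part of reads that align to more than 1 place in these values was not tested. The deposited FPKM, whose handling of such reads is not stated, also listed ULBP2 and ULBP3 at 0 in the 6 libraries.

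PVR (ENSG00000073008, chromosome 19, 44643798 to 44663583, plus strand), the ligand shared by DNAM-1 and TIGIT, had 76, 250 and 25 reads in PNPT1 knockdown, or 7.56, 21.8 and 6.40 CPM. It had 173, 234 and 159 reads in SUPV3L1 knockdown, or 14.2, 22.1 and 17.2 CPM. PNPT1 knockdown replicate 2 lay among the SUPV3L1 knockdown libraries, while the other PNPT1 knockdown libraries lay below all of them. The log2 fold change was 0.56 ± 0.49 (SE, n = 3 per group; adjusted p = 0.898, edgeR). It was 1.33 without PNPT1 knockdown replicate 2, 0.27 without replicate 3, 0.31 without replicate 1 of the same group and 0.37 without SUPV3L1 knockdown replicate 2. On the deposited FPKM (log2 of FPKM + 0.1) it was 1.09. PVR shares 121 exonic bases, 3.44% of its exonic length, with CEACAM19 on the same strand, which had 9 to 101 reads per library.

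CD47 (ENSG00000196776, chromosome 3, 108043094 to 108091862, minus strand) was the most counted of the 10 genes, with 6299 reads in all. It had 1740, 1091 and 752 reads in PNPT1 knockdown, or 173, 95.3 and 192 CPM. The SUPV3L1 knockdown libraries had 1121, 627 and 968 reads, or 92.2, 59.1 and 104.8 CPM. PNPT1 knockdown replicates 1 and 3 were high, and replicate 2 lay inside the SUPV3L1 knockdown range. This overlap depends on the scale, because on the deposited FPKM the groups narrowly did not overlap, at 17.3, 9.58 and 9.91 against 8.54, 5.64 and 8.99. The share of all genes without overlap on FPKM was not computed, so no background stands beside this. The means were 153.6 ± 51.5 CPM with PNPT1 and 85.4 ± 23.6 CPM with SUPV3L1 knocked down (SD, n = 3). The log2 fold change was -0.85 ± 0.37 (SE), or 1.80-fold higher with PNPT1 knocked down, with adjusted p = 0.898 in the edgeR quasi-likelihood test. Leaving out each library in turn gave -1.11 to -0.65, with -0.66 without PNPT1 knockdown replicate 3, and the adjusted p over 15 alternatives was 0.248 to 0.999.

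C10orf54 (ENSG00000107738, chromosome 10, 71747559 to 71773498, minus strand) had 194, 112 and 19 reads in PNPT1 knockdown, or 19.3, 9.78 and 4.86 CPM. It had 255, 145 and 294 reads in SUPV3L1 knockdown, or 21.0, 13.7 and 31.8 CPM. PNPT1 knockdown replicate 1 lay above SUPV3L1 knockdown replicate 2, and so the groups overlapped. The log2 fold change was 0.95 ± 0.51 (SE, n = 3 per group; adjusted p = 0.898, edgeR). Leaving out PNPT1 knockdown replicate 1 gave 1.56, leaving out its replicate 3 gave 0.60 and leaving out SUPV3L1 knockdown replicate 3 gave 0.59. The gene lies inside CDH23, which is transcribed from the opposite strand and had 1 to 32 reads, and they share no exonic base. CD274 (ENSG00000120217, chromosome 9, 5450503 to 5470566, plus strand) had 0 reads in each PNPT1 knockdown library and 1, 0 and 3 reads in SUPV3L1 knockdown, where 3 reads have an exact Poisson 95% interval of 0.619 to 8.77. CD274 was thus at or under 3 reads in each library, and no fold is given.

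**Figure D2:**
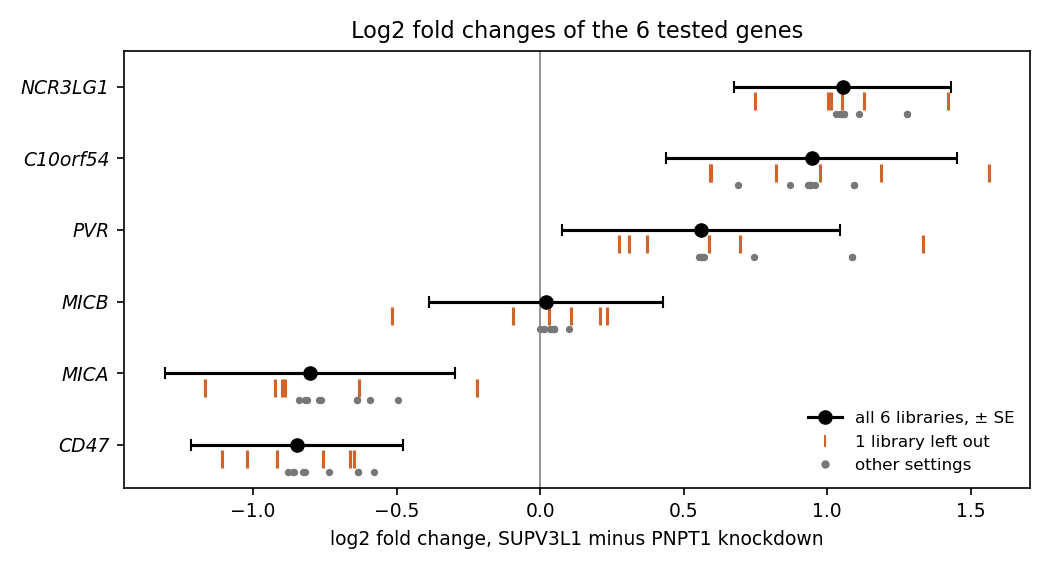
Log2 fold change, SUPV3L1 minus PNPT1 knockdown (x axis), of the 6 tested genes; black points with bars are edgeR estimates ± SE from 3 libraries per group, orange ticks leave out 1 library each and grey points are the other settings. NCR3LG1, C10orf54 and PVR stay above 0 and MICA and CD47 below 0, while MICB crosses 0.

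The coefficient of variation between replicates was 1.42 to 10.9 times that of counting alone over 12 of 12 gene and group pairs. The lowest ratio was that of MICB in PNPT1 knockdown, at 13.3% against 9.37%. For NCR3LG1 it was 46.8% in PNPT1 knockdown and 10.0% in SUPV3L1 knockdown, where counting alone gives 6.37% and 2.94%. For CD47 it was 33.5% and 27.6%, where counting gives 3.07% and 3.42%. The variation of 5 of the 6 genes was wider in PNPT1 knockdown, and MICB, at 52.7% in SUPV3L1 knockdown, was the exception. PNPT1 knockdown replicate 3 held the lowest of the 6 levels for NCR3LG1, PVR and C10orf54, in CPM and in FPKM. For MICB it did so in FPKM only. In CPM it also held the highest for MICA and CD47, but in FPKM replicate 1 of that group was higher for both, at 4.72 against 4.66 for MICA and 17.3 against 9.91 for CD47. The TMM factor of replicate 3 was 0.669, the lowest of the 6. That library also had the highest clone-named share and the lowest mitochondrial share, given above, and the part of these in the values of the 10 genes was not tested. Removing those genes before scaling left the 6 log2 fold changes at 1.05 (NCR3LG1), 0.94 (C10orf54), 0.56 (PVR), 0.01 (MICB), -0.81 (MICA) and -0.86 (CD47).

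Levels were compared between genes on the deposited FPKM, which divides by gene length. In PNPT1 knockdown the order was CD47 (12.3 ± 4.34 FPKM), NCR3LG1 (6.40 ± 3.99), MICB (4.32 ± 1.64), MICA (3.87 ± 1.41), PVR (2.81 ± 2.61) and C10orf54 (1.78 ± 1.43; SD, n = 3), and each neighbour in this order overlapped the next. In SUPV3L1 knockdown the order was NCR3LG1 (13.1 ± 1.31 FPKM), CD47 (7.73 ± 1.82), MICB (4.69 ± 2.67), PVR (4.51 ± 1.13), C10orf54 (3.20 ± 1.25) and MICA (2.40 ± 0.697; SD, n = 3). There NCR3LG1 lay above CD47 without overlap, at 11.7 to 14.3 against 5.64 to 8.99 FPKM, and the next 4 neighbours overlapped. ULBP1 followed in either group and CD274 in SUPV3L1 knockdown, at 0.128 FPKM at most in any library. In PNPT1 knockdown CD274 was at 0 FPKM.

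The RNA levels of NCR3LG1 and CD47, the genes with the smallest p-values, were set side by side as a ratio inside each library, which library scaling does not touch. Their proteins are read by different cells, so the ratio measures no balance of signals. The ratio of FPKM was 0.417, 1.04 and 0.209 with PNPT1 knocked down and 1.37, 2.54 and 1.47 with SUPV3L1 knocked down. NCR3LG1 was thus above CD47 per length in each SUPV3L1 knockdown library and, narrowly, in PNPT1 knockdown replicate 2, and the groups did not overlap. On read counts the ratios were 0.305, 0.809 and 0.145 against 1.05, 1.96 and 1.11, with geometric means of 0.330 and 1.32, a difference of 2.00 on the log2 scale. Leaving out PNPT1 knockdown replicate 3 made it 1.41, and leaving out replicate 2 of that group made it 2.65. The pair was picked with the direction of both genes known, so the ratio is a description and was not tested.

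**Figure D3:**
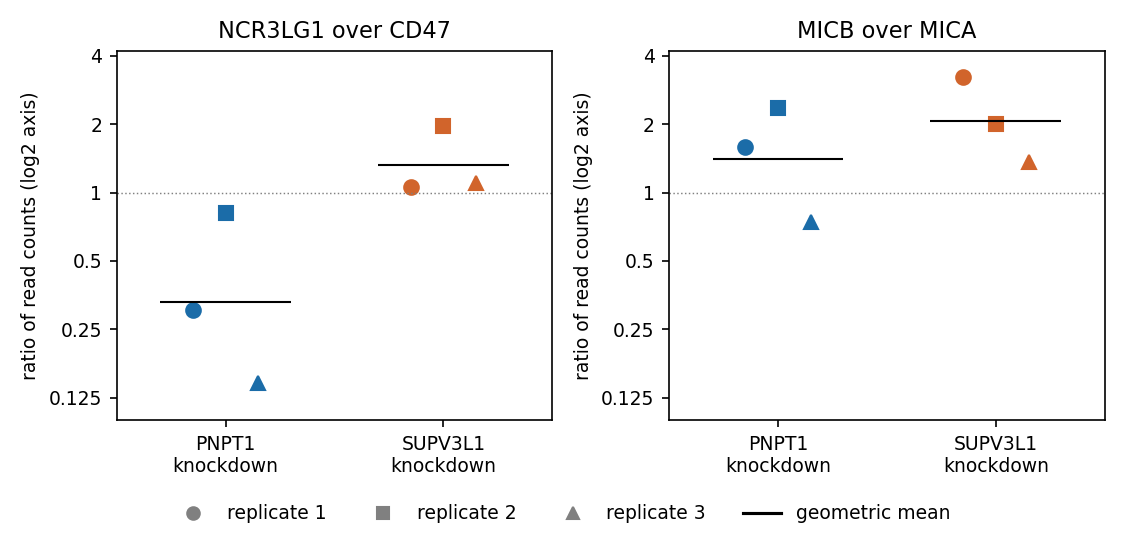
Ratio of read counts inside each library (y axis, log2 scale) for NCR3LG1 over CD47 (left) and MICB over MICA (right), by knockdown (x axis); symbols mark replicates and the line is the geometric mean of 3 libraries. The left ratios are at 0.145 to 0.809 in PNPT1 knockdown and 1.05 to 1.96 in SUPV3L1 knockdown, and the right ratios overlap.

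RNA that pairs with itself is a possible substrate of J2, and inverted repeats inside a transcript are a common source of such pairing, so the annotated transcripts were searched for them. None of the 10 genes had, in its longest coding transcript in GENCODE 29, a pair of inverted arms of 150 bases or more at 75% identity or more. Of 10940 tested protein-coding genes, 510 (4.66%) had such a pair, so 0 of 6 tested genes is close to that share. Introns, longer untranslated ends and pairing between separate RNAs were not searched.

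Other genes of the same pathways were taken from 5 lists, 65 genes in all, of which 36 passed the expression filter. None of the 36 passed the adjusted edgeR threshold in either direction, beside 0% of all tested genes. Of 12 other ligands of activating receptors, 3 were tested, with a median log2 fold change of -0.37. CLEC2B, the ligand of NKp80, had a mean of 60.3 ± 39.6 CPM with PNPT1 knocked down and 24.6 ± 4.04 CPM in SUPV3L1 knockdown (SD, n = 3), a log2 fold change of -1.29 ± 0.46 (SE; adjusted p = 0.898, edgeR) that was -0.66 without PNPT1 knockdown replicate 3. BAG6, a chaperone and NKp30 ligand like NCR3LG1, was at 92.6 ± 40.2 and 71.5 ± 6.86 CPM (SD, n = 3), and its log2 fold change of -0.37 turned to 0.03 without the same library. The further NKG2D ligands RAET1G and RAET1L had 0 reads and RAET1E had 7 in all.

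Of 10 adhesion and inhibitory partners of natural killer cells, 6 were tested, 3 above 0, with a median of 0.03. ICAM3, which binds the integrin LFA-1, was at 7.56, 0.786 and 4.61 CPM with PNPT1 knocked down and at 17.5, 0.566 and 19.2 CPM with SUPV3L1 knocked down. Replicate 2 was the low library in either group, and the groups overlapped. HLA-E, the ligand of the inhibitory receptor NKG2A, was at 605, 365 and 1269 CPM with PNPT1 knocked down and at 464, 215 and 663 CPM with SUPV3L1 knocked down. Its log2 fold change of -0.74 ± 0.55 (SE; adjusted p = 0.898, edgeR) shrank to -0.13 without PNPT1 knockdown replicate 3.

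Of 22 further checkpoint genes, 9 were tested, 5 above 0, with a median of 0.16. TNFSF9, the ligand of 4-1BB, was at 20.3 ± 13.5 CPM with PNPT1 knocked down and 10.9 ± 2.52 CPM in SUPV3L1 knockdown, and ENTPD1 (CD39), an enzyme that degrades extracellular ATP, was at 2.55 ± 1.58 and 5.64 ± 3.89 CPM (SD, n = 3). Their groups overlapped. Their log2 fold changes were -0.88 and 1.10, and moved to -0.21 without PNPT1 knockdown replicate 3 and to 0.36 without SUPV3L1 knockdown replicate 1, respectively, while ENTPD1 was 0.77 when PNPT1 knockdown replicate 3 was left out (adjusted p = 0.898 for each with all libraries, edgeR).

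Of 11 genes that process or shed the proteins of the 10 genes, 8 were tested, 4 above 0, with a median of -0.15. ADAM17, a metalloprotease that sheds NKG2D ligands, was at 66.0, 24.1 and 72.4 CPM with PNPT1 knocked down and at 26.6, 27.4 and 27.3 CPM with SUPV3L1 knocked down. Levels in the latter were nearly equal, and PNPT1 knockdown replicate 2 lay just below them, with the other PNPT1 knockdown libraries well above. For ADAM17 the log2 fold change was -0.995 ± 0.406 (SE, n = 3 per group; adjusted p = 0.898, edgeR), and leaving out PNPT1 knockdown replicate 3 gave -0.74. CMTM4, which stabilises PD-L1 together with CMTM6, was at 39.3 ± 21.1 and 21.0 ± 5.66 CPM (SD, n = 3), a log2 fold change of -0.90 ± 0.45 (SE) that became -0.55 when the same library was left out.

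Of 10 genes in the death receptor list, all were tested and 8 were above 0, with a median of 0.43. SERPINB9, an inhibitor of granzyme B, was in the list though it is not part of the death receptor pathway itself. It was at 1.19, 0.349 and 0.512 CPM with PNPT1 knocked down and at 12.7, 0.283 and 2.92 CPM in SUPV3L1 knockdown. SUPV3L1 knockdown replicate 1 held most of its reads and replicate 2 of that group was the lowest of the 6 libraries. Its log2 fold change was 2.90 ± 1.11 (SE, n = 3 per group; adjusted p = 0.898, edgeR), and 1.16 without SUPV3L1 knockdown replicate 1. BID, which links death receptors to mitochondria, was at 16.4 ± 4.14 and 25.9 ± 5.70 CPM (SD, n = 3), a log2 fold change of 0.65 ± 0.34 (SE) that was 0.49 when PNPT1 knockdown replicate 3 was left out. FAS, named after its values were seen, was the only gene of the 5 lists whose groups did not overlap, at 7.61 CPM with PNPT1 knocked down and 5.01 CPM in SUPV3L1 knockdown on average, where 3.94% of all tested genes were lower in SUPV3L1 knockdown without overlap.

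**Figure D4:**
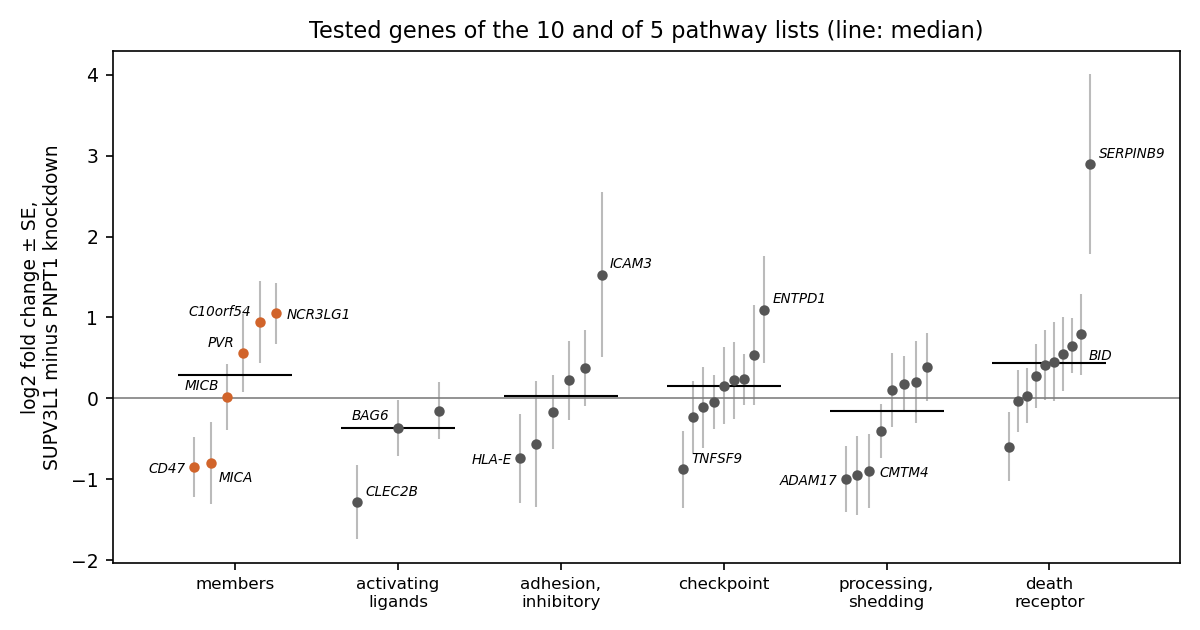
Log2 fold change ± SE (y axis), SUPV3L1 minus PNPT1 knockdown, of the tested genes among the 10 (orange) and in the 5 pathway lists (grey), grouped along the x axis; the line is the list's median. The medians lie between -0.37 for other activating ligands and 0.43 for the death receptor list, and no gene passed the adjusted threshold.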

How the data were processed

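The authors deposited read counts per Ensembl gene for each library and a table of FPKM, which the authors scaled to gene length and depth. The submitters' processing notes name HTSeq, StringTie 2.1.4, HISAT2 2.2.1 and SAMtools 1.14, with no order or role. The sources used here do not give the strand setting, the annotation or the tool behind the FPKM, so reads from antisense genes cannot be told apart. The 5 summary lines (84.0% to 92.9% of entries, including 65.7% to 80.1% not uniquely aligned) were left out of library sizes.

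The main test of the counts was edgeR 4.0.16, run in R 4.3.3 (TMM, default expression filter with minimum count 10 and total 15, quasi-likelihood test, Benjamini-Hochberg adjustment over 13275 genes, threshold 0.05). Each standard error is the log2 fold change over the square root of F. The edgeR, DESeq2 and limma code was tried on simulated counts, and the sequence searches were not. The log2 changes planted there were all larger than that of NCR3LG1, so recovery of smaller changes was not tested. Alternatives were DESeq2 1.42.0, limma 3.58.1 on log2 FPKM, other scalings and filters, and leaving out each library. All identifiers had a symbol in the FPKM table. Positions come from GENCODE 29, promoters from RefSeq (GRCh38.p14), and inverted repeats from BLAST+ 2.17.0.

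The 10 genes, lists and ratios were chosen with earlier results of these data known. The rule named the 10 genes, the targeted genes, the 2 genes of each list with the smallest p and the 3 genes most like the gene with the smallest p. Each edgeR p-value sets a group difference against the spread between libraries of a group, estimated with help from all tested genes.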

Additional observations from a re-analysis of the deposited data

How the results depend on the processing

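None of the 10 genes that entered a test passed the threshold under any of 15 alternatives. DESeq2, edgeR without the expression filter and limma on unfiltered log2(FPKM + 0.1) took in 8 of the 10, and the other alternatives 6. ULBP2 and ULBP3, with 0 reads, entered none and could not be called. NCR3LG1, C10orf54, PVR, MICA and CD47 kept their direction in all 15, and MICB turned in 3, to -0.00222 with RLE scaling, -0.0928 without PNPT1 knockdown replicate 2 and -0.515 without SUPV3L1 knockdown replicate 1; leaving out single libraries gave -0.515 to 0.2337. BAG6 turned to 0.0340 without PNPT1 knockdown replicate 3, in a range of -0.566 to 0.0340. Over all genes 0 passed in edgeR's quasi-likelihood test, with 543 at an unadjusted p under 0.05 (2098 without PNPT1 knockdown replicate 2 and 218 without SUPV3L1 knockdown replicate 1), while DESeq2 called 19 (14 higher, 5 lower), edgeR without the expression filter called 187 (107 higher, 80 lower), and leaving out 1 library gave 0 to 1, the 1 without SUPV3L1 knockdown replicate 2. Without the expression filter 1 gene passed in the shedding list, MMP9 (named after its values were seen; adjusted p = 5.69e-06, with 269 of its reads in SUPV3L1 knockdown replicate 1 and 0 to 27 in the other libraries), and 1 in the death receptor list, SERPINB9 (adjusted p = 0.0184). DESeq2 called neither (adjusted p = 0.700 and 0.502). The log2 difference of the NCR3LG1 to CD47 ratio lay between 1.41 and 2.65 without each library and was 1.94 on FPKM. The median over all genes moved to 0.174 on log2(FPKM + 0.1), 0.112 without a filter and 0.105 with DESeq2, from 0.01. Of 267 alternative values of 18 named genes, 262 kept direction and side of the threshold. No paired analysis was possible because the labels give no replicate numbers shared between the groups.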
